A study of Mus musculus with 8 samples.

Results

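The regions described here are 565 bins of 50 kb that replicated early in mouse embryonic stem cells and were scored later after 2 days of auxin, the agent used to deplete CTCF. They are 3.43% of 16475 early bins, 1.38% of 41018 autosomal bins with at least 3 windows, and they cover 28.25 Mb of the mm10 build. The bins were chosen by their own scores: the auxin mean lay 0.8 or more below the control mean, both auxin profiles lay below both control profiles, and the control mean was above 0.5. All 4 profiles were used in that choice, so the sizes of the delay given below describe the chosen bins and are not tests.

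CTCF binds DNA through its zinc fingers and halts the extrusion of loops by cohesin, which places boundaries between topological domains. Replication timing is the order in which segments of the genome are copied during S phase. Early segments are mostly gene-rich and open, late segments are mostly gene-poor and lie at the nuclear periphery, and sloping transitions join them.

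The cells, of the mouse embryonic stem cell line E14Tg2a, had an auxin-inducible degron on CTCF, a tag through which auxin directs the protein to degradation. One group was kept for 2 days in 500 µM indole-3-acetic acid and the other was given none, and both groups carried the degron. Cells were pulsed with BrdU for 2 hours and sorted by propidium iodide into early and late S-phase fractions, whose BrdU-labelled DNA was sequenced. Each group had 2 profiles, each made by the authors from an early and a late library, 8 libraries in all. CTCF protein was not measured in these files, and with no degron-free cells given auxin, effects of auxin itself and of CTCF loss cannot be told apart. The labels do not say that the replicates came from separate cultures, so the spread between profiles may be technical.

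The timing score is a quantile-normalised number per window, higher where replication is earlier, whose log base and formula no source used here gives. Its direction follows the authors' list of early-to-late regions. A shift of the whole genome cannot be seen in it, because every profile was given the same distribution of values. Depth is unknown since no file holds read counts. Each chosen bin held 5 to 9 windows.

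Among genes of the delayed loci, 2 had a match to the core of the CTCF motif just upstream of their start in one of the 12 leading loci described below. They are shown because CTCF is the protein targeted. Cggbp1, which encodes a protein that binds CGG repeats, starts on the plus strand of chromosome 16 in the third locus, and Nol7, which encodes a nucleolar protein, starts on the plus strand of chromosome 13 in the fourth. The stretches end at or before the annotated start, are read 5′ to 3′ on the gene's strand from RefSeq promoters of GRCm38.p6, and lie at chr16:64851879-64851978 and chr13:43398282-43398375. Capitals mark the match to the core motif, CCA, any 2 bases, AG, any 2 bases and GGC, which lies on the opposite strand in Cggbp1 and on the same strand in Nol7.
Cggbp1: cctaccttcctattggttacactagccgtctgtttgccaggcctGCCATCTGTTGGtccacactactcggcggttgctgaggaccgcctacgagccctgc
Nol7: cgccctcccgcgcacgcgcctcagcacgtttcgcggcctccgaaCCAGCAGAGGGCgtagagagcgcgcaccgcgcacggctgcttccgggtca

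The motif was searched on both strands, from 250 bases before to 50 after each start, and matches on the 2 strands were not counted apart. It was present in 11 of 308 promoters of genes that start in delayed bins, a share of 3.57% with an exact binomial 95% interval of 1.80% to 6.30%. The share was 2.79% for genes that start in other early bins and 2.39% over all 16457 autosomal protein-coding promoters matched to RefSeq. The interval of the delayed bins holds both other shares. A match is a run of letters and not a measured binding site. The median GC content of the promoters was 61.0% in delayed bins and 59.3% in other early bins. CpG sites were more than 0.6 of the number expected from base composition in 67.9% of promoters in delayed bins and 60.3% in other early bins.

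Over the 565 bins the mean control scores were 1.93 in replicate 1 and 1.88 in replicate 2, and the mean auxin scores were 0.88 and 0.90. Controls thus averaged 1.90 ± 0.034 and auxin profiles 0.89 ± 0.014 (SD, n = 2 profiles each). Differences between auxin and control ranged from -2.00 to -0.80 with a median of -0.95, and 227 bins fell by 1 or more. In the 15910 other early bins controls averaged 2.18 ± 0.0063 and auxin profiles 2.19 ± 0.00095 (SD, n = 2 profiles each). The 2 control profiles of a delayed bin differed by a median of 0.228 and the 2 auxin profiles by 0.178, against 0.244 and 0.198 in other early bins. The rule asked for groups that do not overlap, which favours a small spread within each group, so nothing is read from that contrast. The gap between the nearest control and auxin profiles ran from 0.030 to 1.89, and it was 0.5 or more in 498 of the 565 bins.

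Most of the delayed bins stayed early. With auxin, 353 bins (62.5%) still had a mean above 0.5, 177 (31.3%) lay between -0.5 and 0.5, and 35 (6.19%) lay below -0.5 and so were late. Control means of the bins ran from 0.51 to 4.33 with a median of 1.82, and auxin means from -1.15 to 3.40 with a median of 0.87. The scatter of control against auxin scores shows the chosen bins as the lower edge of a continuous cloud.

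**Figure D1:**
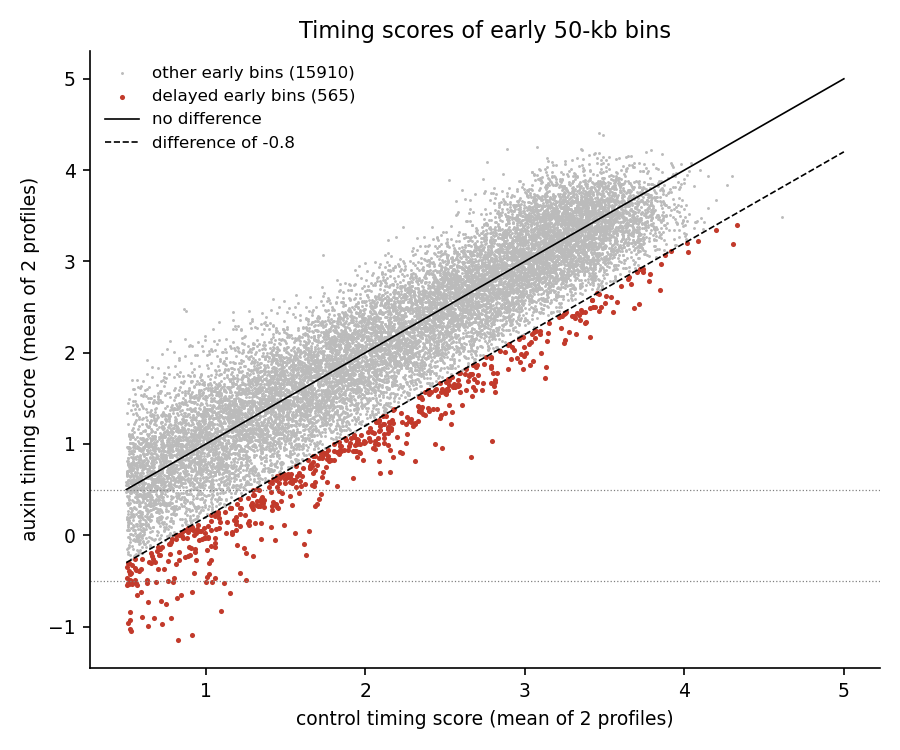
Each point is an early 50-kb bin, with its control mean on the x axis and its auxin mean on the y axis (normalised timing score, 2 profiles each); red points are the 565 delayed bins, grey points the 15910 others, and dotted lines mark 0.5 and -0.5. The red points lie under the dashed line at a difference of -0.8 by choice, and 353 of them stay above 0.5 with auxin.

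Bins just inside and just outside the thresholds had similar scores. The chosen bin nearest the threshold on the difference, over Mipep on chromosome 14, had control scores of 2.09 and 2.13 and auxin scores of 1.28 and 1.33. The bin left out over Agtpbp1 and Naa35 on chromosome 13 had control scores of 2.78 and 2.91 and auxin scores of 1.93 and 2.16. A bin over Lef1, a transcription factor of Wnt signalling, was left out at a control mean of 0.499, although its difference was -1.56. One early bin with a difference of -1.12 was left out because its groups overlapped, over Arf3, Wnt1 and Wnt10b on chromosome 15, and it held 3 windows.

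By limma across the 41018 bins with treatment as the only term, 564 bins (1.38%) were later with auxin at a Benjamini-Hochberg adjusted p under 0.05. Of the 565 chosen bins, 268 were among them. The bins were picked on the same contrast, so nothing is read from that count. It also rests on few profiles: without either auxin profile, or when 4792 bins with fewer than 3 windows were added, no bin passed. By the rule's own thresholds of difference and separation, with no condition on the control score, 1286 of the 41018 bins (3.14%) were later, and 721 of those were middle or late in controls.

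How far the delay recurred in profiles not used to choose bins was read by choosing on 1 auxin and 1 control profile and reading the remaining pair. Across the 4 ways of pairing, 836 to 1040 early bins differed by -0.8 or lower in the choosing pair, with medians of -0.97 to -0.96. Their median difference in the pair left aside was -0.60 to -0.48, and 84.7% to 88.9% of them were later there too. The same pairs put 50.8% to 51.8% of all early bins later, with medians of -0.02 to -0.01. Only 26.8% to 34.3% of the chosen bins reached -0.8 again, against 4.69% to 6.27% of all early bins. The delay thus kept its direction in most of these bins and lost much of its size when read apart from the choice. Early bins chosen as earlier kept their direction in 65.0% to 83.4%, with medians of 0.22 to 0.54 in the pair left aside. Recurrence was therefore not particular to delay. The bins chosen here are not the same set as the 565, and the 4 pairings share profiles.

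The count of delayed early bins against bins that moved the other way depended on which profiles defined early. Classed by the control mean, 565 early bins were later and 306 were earlier by the same thresholds. Classed by the mean of all 4 profiles the counts were 446 and 392, and classed by the auxin mean they were 353 and 497. The excess of delay over advance was thus present under the first 2 classings and turned round under the last. Within the rule's classing, the share delayed was 4.67% of bins with control means of 0.5 to 1, 4.24% at 1 to 2, 3.28% at 2 to 3 and 1.91% above 3.

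The delayed bins formed 251 loci on all 19 autosomes when bins at most 1 bin apart were joined. Single bins made up 136 loci, and 34 loci of 5 or more bins held 215 bins, the longest spanning 550 kb. The delay reached beyond the chosen bins: the run of bins with a difference of -0.4 or lower around a locus had a median length of 350 kb and a maximum of 1450 kb. Neighbouring loci in the same run, such as those over Pde4d at 1300 kb, were each given its full length. The median is thus over loci and not over distinct runs.

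Averaged over the loci, the central bin had control scores of 2.22 and 2.11 and auxin scores of 1.20 and 1.23. The difference was -0.95 at the centre, where the choice was made, -0.40 at 200 kb on one side and -0.38 on the other. At 500 kb it was -0.09 and -0.07, and at 1000 kb -0.02 and 0.03. The mean control profile was a single peak of early replication at the centre. The auxin profiles were lower and flatter, with their highest values, 1.23 and 1.24, in the bin 50 kb to one side. The loci are centred on bins chosen for a high control score and a lower auxin score. That choice favours both a control peak and a lower auxin centre, and these shapes were not tested.

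**Figure D2:**
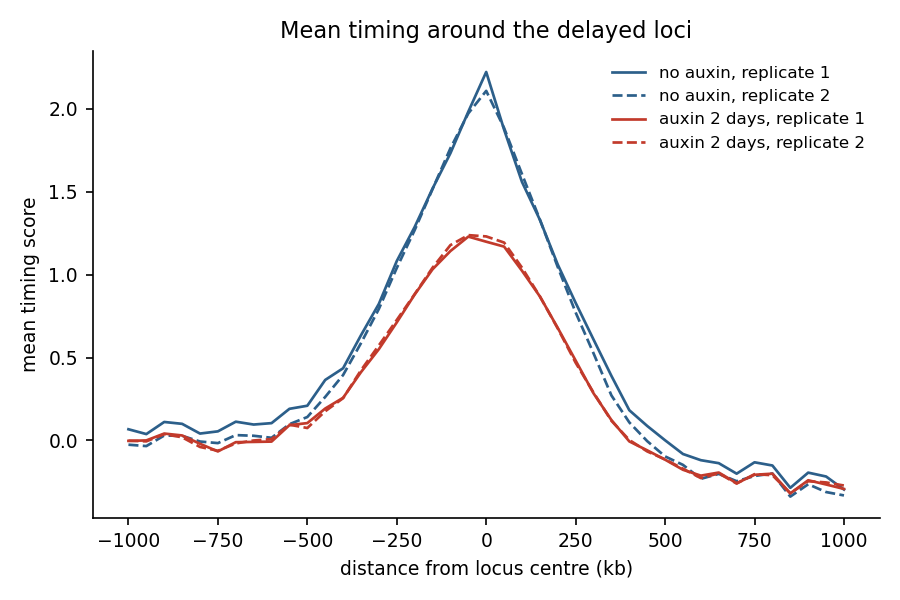
Mean timing score (y axis) by distance from the centre of the 251 delayed loci in kb (x axis), with 1 line per profile, blue for no auxin and red for auxin. At the centre the lines stand at 2.22 and 2.11 without auxin and at 1.20 and 1.23 with it, and the groups draw together towards 500 kb.

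The locus with the largest summed delay lay on chromosome 3 from 137700001 to 138150000. It holds Mttp, which loads lipid onto lipoproteins, Dapp1, an adaptor of lymphocyte signalling, Dnajb14, a co-chaperone of the endoplasmic reticulum, Lamtor3, a scaffold of lysosomal signalling, Trmt10a, a tRNA methyltransferase, and H2az1, which encodes a histone H2A.Z variant. Its control scores were 2.09 and 2.23 and its auxin scores 0.76 and 0.79. The groups lay far apart and the locus remained early. The bin over Dapp1, Dnajb14 and Lamtor3 was among the 5 most delayed of all, with control scores of 2.63 and 2.69 and auxin scores of 0.99 and 0.73.

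Other leading loci fell from early to the middle of the range. Pde4d, a phosphodiesterase that degrades cAMP, was the 1 protein-coding gene of the second locus (chromosome 13, 109650001 to 110050000), which runs past the end of the gene at 109955969. The locus had control scores of 1.24 and 1.47 and auxin scores of 0.29 and -0.05. Over the whole body of Pde4d the scores were 0.10 and 0.13 in controls and -0.72 and -0.88 with auxin. The third locus (chromosome 16, 64650001 to 65050000), with the serotonin receptor gene Htr1f, the zinc finger gene Zfp654 and Cggbp1, had 1.39 and 1.52 in controls and 0.35 and 0.10 with auxin. The fifth (chromosome 8, 64600001 to 65000000) had 1.25 and 1.17 against 0.25 and -0.04. It holds Klhl2, an adaptor of a ubiquitin ligase, Cpe, which processes prohormones, Msmo1, an enzyme of cholesterol synthesis, Tmem192, a lysosomal membrane protein, and the tripartite motif genes Trim60 and Trim75.

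A further 4 leading loci came near the late boundary of -0.5, and the auxin mean of 2 of them lay below it. Etv6, which encodes an ETS-family repressor, lay in the ninth locus with Gm46977 and Kap (chromosome 6, 133850001 to 134100000), scored 1.27 and 1.06 in controls and -0.38 and -0.51 with auxin. The tenth (chromosome 2, 65300001 to 65550000), with the sodium channel gene Scn3a and the transporter gene Slc38a11, had 0.92 and 1.04 against -0.72 and -0.48. The 12th (chromosome 7, 72150001 to 72400000), over Mctp2, had 0.85 and 1.02 against -0.63 and -0.52. The auxin means were -0.44 in the ninth, -0.60 in the tenth and -0.57 in the 12th, and the groups did not overlap. The seventh (chromosome 16, 78200001 to 78550000), with the adhesion molecule Cxadr, the antiproliferative gene Btg3 and D16Ertd472e, had 0.61 and 0.86 against -0.47 and -0.42.

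The other 4 leading loci stayed above 0.5 in both auxin profiles. The fourth (chromosome 13, 43050001 to 43500000), with Gfod1, the actin regulator Phactr1, Ranbp9, the mitochondrial desuccinylase Sirt5, Tbc1d7 and Nol7, had control scores of 2.29 and 2.19 and auxin scores of 1.18 and 1.23. The eighth (chromosome 10, 20900001 to 21300000), with the ciliary gene Ahi1, the blood progenitor factor Myb and the ribosome rescue factor Hbs1l, had 1.83 and 1.76 against 0.72 and 0.56. Mean differences over these 4 loci ran from -1.15 to -0.93, while the first locus, which also stayed above 0.5, had -1.39. The sixth (chromosome 2, 101900001 to 102450000; Ldlrad3, Trim44, Commd9 and Fjx1) had 1.59 and 1.61 against 0.66 and 0.68. The 11th (chromosome 7, 63700001 to 64100000; the deubiquitinase gene Otud7a and the transcription factor gene Klf13) had 1.80 and 1.77 against 0.88 and 0.75. These are scores of the chosen bins and not of whole genes, and some genes lie only partly in a locus. Over its whole body Otud7a had -0.48 and -0.64 in controls and -1.18 and -1.29 with auxin. Phactr1 had -0.13 and -0.18 against -0.61 and -0.40.

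**Figure D3:**
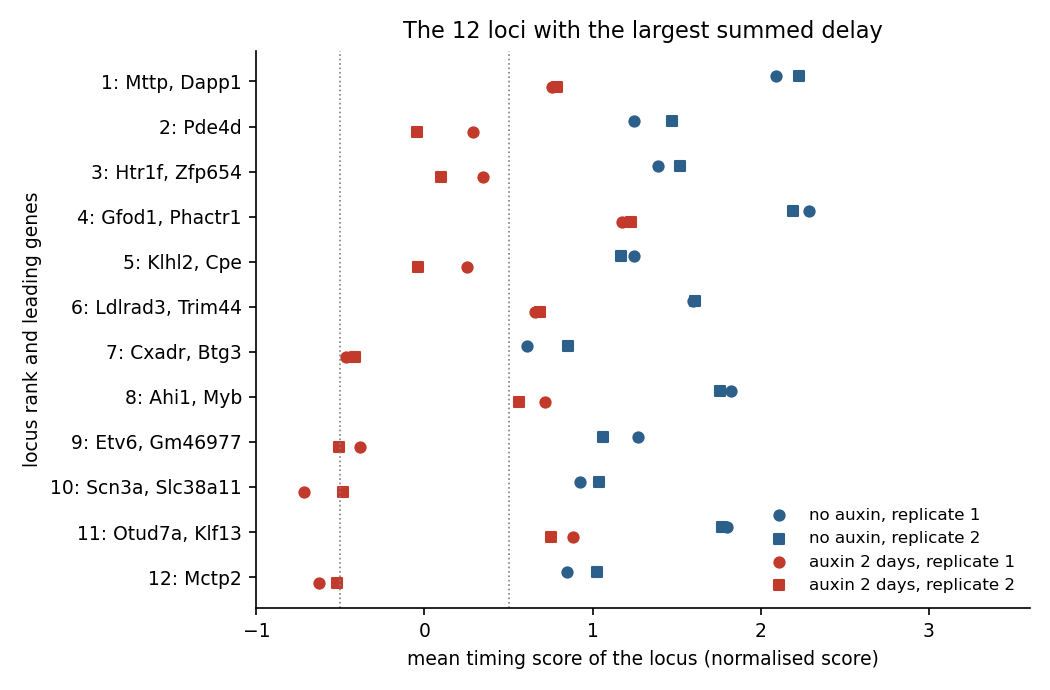
Mean timing score (x axis) of the 12 loci with the largest summed delay (y axis, by rank and up to 2 genes), with 1 point per profile, blue for no auxin and red for auxin, and dotted lines at 0.5 and -0.5. Red and blue points do not overlap in any locus, which the choice of bins fixed.

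**Figure D4:**
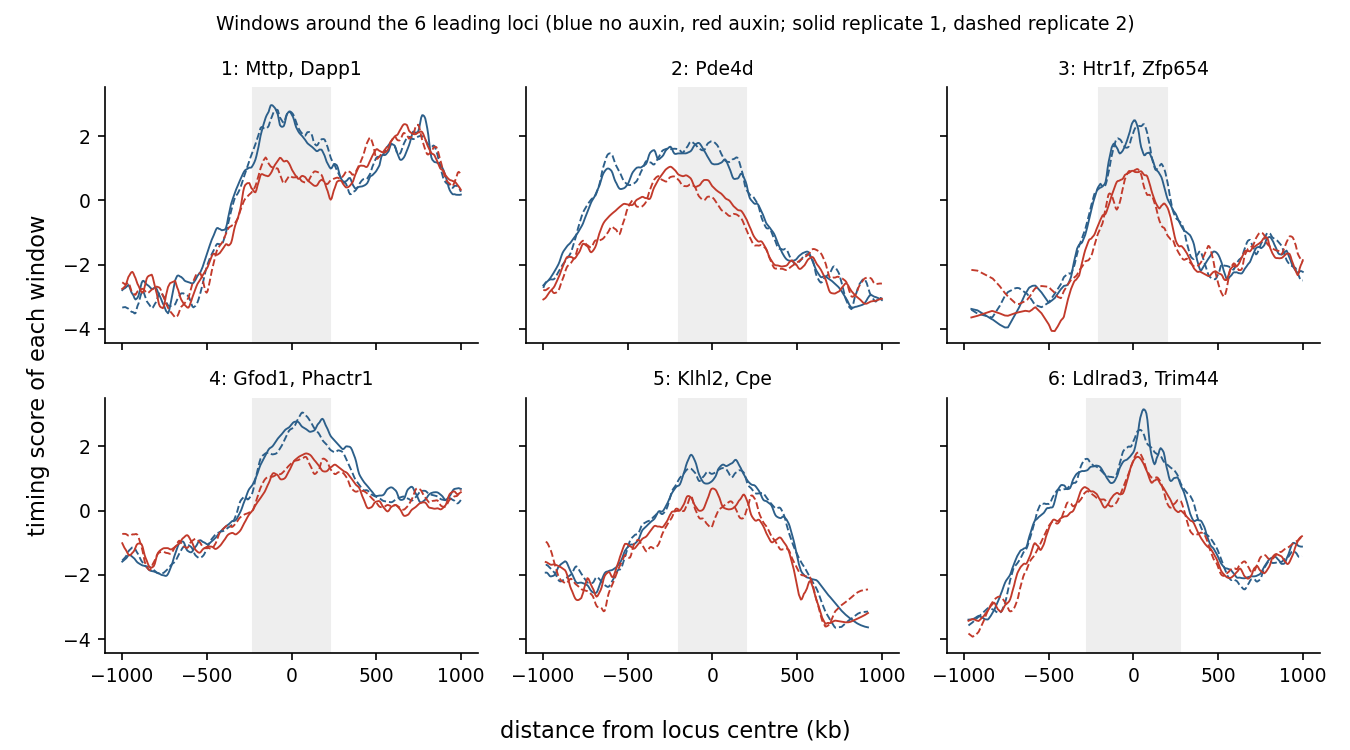
Timing score of each window (y axis) by distance from the locus centre in kb (x axis) at the 6 leading loci, 1 line per profile, with the span of the locus in grey. At Pde4d the auxin lines run below the control lines over 1300 kb, and at the Mttp locus over 650 kb, by the difference of -0.4 or lower.

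The lowest single bins named other genes as well. The bin over Scn3a from 65500001 to 65550000 on chromosome 2 had control scores of 0.86 and 0.96 and auxin scores of -1.03 and -1.15, the largest difference at -2.00. Cyria, which encodes a protein that binds Rac, lay in a bin on chromosome 12 with 0.93 and 0.72 in controls and -1.31 and -0.98 with auxin. A second stretch of Pde4d, in the bin from 109200001 to 109250000, had 0.92 and 1.27 against -0.60 and -1.05. The bin over Etv6 and Gm46977 had 1.91 and 1.35 against -0.09 and -0.36.

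The surroundings of the delayed bins differed from those of other early bins. Their median distance to the nearest crossing of 0 in the control profile was 225 kb, against 525 kb, and 44.1% lay within 200 kb of one, against 20.3%. The 721 middle and late delayed bins had a like share within 200 kb, 40.6%. This distance was not read from a control profile left out of the choice. They sat in early domains, unbroken runs of bins above 0.5 in controls, of median length 0.7 Mb against 1.8 Mb. Of the 565 bins, 391 (69.2%) were in domains shorter than 1 Mb, against 28.1% of other early bins and 19.0% of the 306 early bins that moved earlier. The order held at each level of control score: domains under 1 Mb held 90.8% of delayed against 61.6% of other bins at 0.5 to 1, 79.9% against 41.3% at 1 to 2, 62.4% against 19.1% at 2 to 3, and 24.7% against 5.13% above 3.

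Domain length shares the control profiles with the choice, so it was also read from the control profile that the choice had not used. Over the 4 pairings, 46.5% to 57.6% of bins chosen as later lay in early domains under 1 Mb by that profile. Bins chosen as earlier had 12.1% to 16.1%, and the remaining early bins 26.5% to 29.1%. The ranges do not overlap. The 4 pairings share profiles and are not independent repeats.

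**Figure D5:**
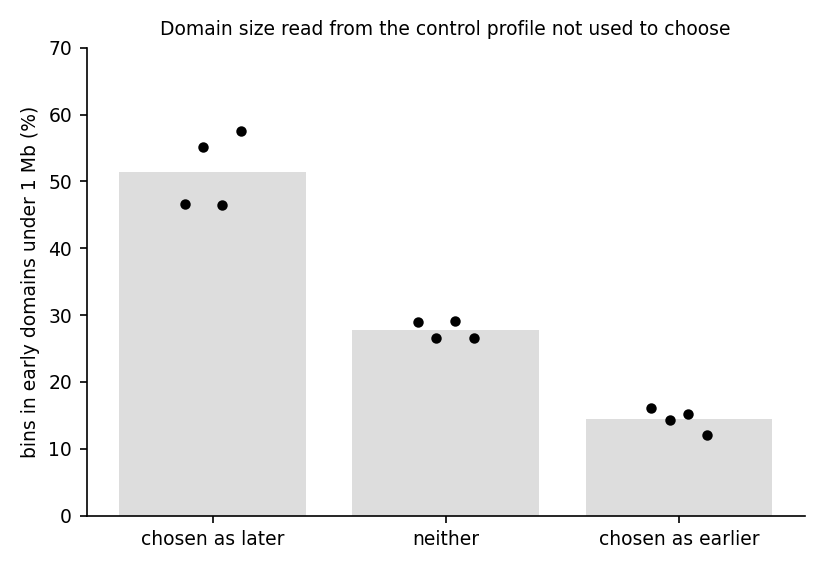
Share of early bins in early domains under 1 Mb (y axis, percent), with the domain measured on the control profile not used to choose; points are the 4 pairings, bars their mean. Bins chosen as later sit at 46.5% to 57.6%, above the others at 26.5% to 29.1% and those chosen as earlier at 12.1% to 16.1%.

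The delayed bins also stood above their neighbours in controls. A delayed bin exceeded the mean of the bins 300 to 500 kb away by a median of 1.88 in controls and 1.13 with auxin, against 0.61 and 0.54 in other early bins. Of 560 delayed bins with neighbours measured, 160 (28.6%) were a local maximum in controls and 51 (9.11%) were one with auxin, and 39 were one in both. Other early bins were local maxima in 10.2% and 9.94%. Choosing bins that fall favours control maxima, and no test was made of these shares.

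Single delayed bins and long delayed loci had different settings. The 136 single bins had a median control mean of 2.49 and 14.9 protein-coding gene starts per Mb, and 54.9% of those measured were control maxima. The 215 bins in loci of 5 or more had a median control mean of 1.53 and 8.56 gene starts per Mb. Of the latter, 85.6% lay in early domains under 1 Mb, against 47.1% of single bins. Control maxima were 16.7% of the bins in these long loci. A maximum exceeds every other bin within 150 kb, so adjoining bins of a locus cannot all be maxima. Locus length thus partly fixes the contrast in maxima, and nothing is read from it.

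The delayed bins held 10.9 protein-coding gene starts per Mb (exact Poisson 95% interval 9.72 to 12.2, counting error only), against 13.4 in other early bins and 11.5 in early bins that moved earlier. Starts were known for 16457 of 20665 autosomal protein-coding genes, so every density of gene starts given here is an undercount. At like control scores the densities were close: 6.61 against 6.80 at 0.5 to 1, 7.75 against 8.72 at 1 to 2, 13.2 against 13.3 at 2 to 3 and 20.5 against 22.8 above 3. Each interval of the delayed bins at these levels holds the value of the other early bins. A protein-coding gene body covered part of 81.2% of them, against 84.4% of other early bins. A gene longer than 200 kb was present in 17.0%, against 11.9% of other early bins and 21.1% of the 721 delayed bins that were middle or late in controls. The order turned round at control means of 2 to 3, where the shares were 8.24% of delayed and 9.87% of other early bins. Of 106 delayed bins with no protein-coding gene, 53 held an annotated long non-coding RNA and 38 no annotation. The 5 bins with immunoglobulin V segments, 18 segments in all, form a locus on chromosome 12 from 113950001 to 114200000, scored 0.61 and 0.86 in controls and -0.29 and -0.42 with auxin.

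Of 14101 protein-coding genes that overlap early bins, 527 (3.74%) overlap a delayed bin, and no gene family is singled out from the counts below. Any overlap counts as a hit, so Kcnu1 is counted with 1 of its 3 bins delayed. Sodium, calcium and potassium channel genes, taken by the symbols Scn, Cacna and Kcn, were hit in 4 of 68 cases (Scn3a, Kcnj9, Kcnj10 and Kcnu1), solute carriers in 8 of 282, zinc finger genes in 8 of 328 and olfactory and vomeronasal receptors in 5 of 181. Of the ribosomal protein genes, 4 of 83 were hit, and Rps29 and Rpl36al share 1 bin with control scores of 2.63 and 2.95 and auxin scores of 1.52 and 1.82. H2az1 was the 1 histone gene of 57. None of 39 Hox genes and none of 13 CTCF and cohesin genes overlap a delayed bin.

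Tet2, which oxidises methylated cytosine, was the 1 of 25 pluripotency genes hit, with control scores of 1.17 and 1.54 and auxin scores of 0.55 and 0.26 over its 2 delayed bins. Among 22 timing and origin genes 2 were hit. Gmnn, the inhibitor of origin licensing, had 1.62 and 2.12 against 0.96 and 0.92. Rif1, a regulator of replication timing itself, had 2.01 and 2.05 against 1.03 and 1.32 in 1 of its 2 bins, and only that bin was delayed. In the delayed bins of each of these genes both auxin scores lay below both control scores, as the rule requires.

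Delayed bins were unevenly spread over chromosomes. On chromosome 13, 66 of 707 early bins (9.34%) were delayed, in 20 loci, and on chromosome 3 36 of 643 (5.60%). Chromosome 11 had the smallest share, 16 of 1304 (1.23%). The early bins of these chromosomes as a whole were also shifted. Their median difference was -0.14 on chromosome 13, -0.17 on chromosome 3 and 0.08 on chromosome 11. The sign was the same in all 4 pairings of profiles. Share and shift did not go together on every chromosome. Chromosome 16 had 4.93% delayed with a median of 0.04, while chromosome 14 had 2.77% with -0.10 and chromosome 19 1.68% with -0.08. After each chromosome was centred on its own median over all bins, a step chosen after seeing the data, 563 bins met the rule, 531 of them the same bins. Chromosome 13 then had 7.64%, chromosome 3 4.51% and chromosome 11 1.61%. Chromosomes 16 at 5.10% and 7 at 4.57% then exceeded chromosome 3, and chromosome 15 had the smallest share, 1.49%. The median over all bins was -0.075 on chromosome 3, so centring did not remove the whole shift of its early bins. The part of chromosome-wide shifts in the uneven spread was not otherwise tested.

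The authors' deposited list of early-to-late regions held 61 autosomal regions. They touch 23 of the 251 loci by any overlap, and they cover at least 50% of 67 delayed bins (11.9%). Of the 161 bins so covered, 41.6% were delayed early bins and the other 94 had control means of 0.5 or lower. The list was made from the same profiles, so this overlap is a description. The list's title holds a difference of 1, while the rule here took 0.8, and 227 of the 565 bins fell by 1 or more. The title also holds a further number whose meaning no source used here gives, so the difference may not be the only unlike criterion. How the authors applied their threshold is not given in the sources used.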

How the data were processed

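The authors deposited a quantile-normalised timing score per window for 4 profiles, 2 with auxin and 2 without, per the file headers; sorted, the 4 columns hold identical values. Bowtie2, SAMtools and bedtools were used with mm10, per the submitters' processing notes; no source used here gives versions, smoothing or the score's formula. Windows lie on a 6-kb grid (88.7% of steps), and neighbouring windows may share reads.

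Scores were averaged in 50-kb bins with at least 3 windows. limma 3.58.1 in R 4.3.3 (lmFit, eBayes, treatment only, 2 residual degrees of freedom) was run over all such bins with Benjamini-Hochberg adjustment. The fit was tested on simulated data. A first simulation, which resampled the observed SDs, recovered no shifted bin. Resampled SDs hold sampling noise already, but whether that was the reason was not tested. A second simulation, with variances drawn from the fitted prior, replaced it and recovered most large shifts and few small ones. The fit assumes that same prior, which favours recovery. The second simulation therefore does not show how many shifts the fit finds in these data. The median difference of the chosen bins, -0.95, was close in size to the small shifts. Everything else used Python 3.11.15 with pandas 2.3.3 and scipy 1.17.1. Genes and promoters came from RefSeq tables of GRCm38.p6 (mm10 coordinates).

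The main fit left replicate number out. Deviations of same-numbered profiles correlated at 0.033, which cannot show whether those profiles were made together, and the labels do not say. Named genes are those of the 12 loci with the most negative summed difference (up to 6 a locus), the 5 lowest bins, bins beside each threshold, and the listed families; the immunoglobulin locus was chosen after its values were seen. Bins and lists were chosen with earlier results of these data known. Alternatives varied the windows, bins, thresholds, variance model and profiles.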

Additional observations from a re-analysis of the deposited data

How the results depend on the processing

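The 565 bins, 251 loci, median difference of -0.95 and 35 late bins stayed close under other window minimums, the median of windows and bins shifted by 25 kb. These alternatives, and those without 1 profile, applied the rule again, so the direction and a median of -0.8 or lower were fixed. A minimum of 5 windows could not remove a chosen bin, since each held 5 to 9. Thresholds set the size: a difference of -0.6 or lower gave 1354 bins in 565 loci, and -1 or lower 227 bins in 106 loci. Leaving out 1 profile gave 662 to 905 bins, 317 to 516 loci, 31 to 46 late bins and medians of -0.96 to -0.94, and without control replicate 2 only 457 of the 905 bins were among the 565. Classing by all 4 profiles, added after seeing the data, gave 0 late bins, which that classing nearly fixes by construction and which says nothing about stability. Counting genes by body gave 18.7 per Mb in place of 10.9, since a gene then counts without its start, and transitions at 0.5 lay 175 kb away in place of 225 kb. The held-out difference ran from -0.60 to -0.48.

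The limma counts were unstable. Against 564 later bins, 268 of them chosen, the fit with the replicate block gave 1378 and 550, trended and robust variance 2576 and 548, at least 5 windows 1171 and 502, and all autosomal bins 0 and 0, with 8724 bins at an unadjusted p under 0.05. Leaving out 1 profile gave 0 to 437 later bins and 0 to 179 of the chosen bins; the lone profile was assumed to vary like the other group. The causes were not tested. With 2 profiles a group and unknown depth, a delay of single bins is weakly resolved.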
